A study of Homo sapiens with 2 samples.

Results

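The peaks described here lay in 10 genes of the endoplasmic reticulum (ER) translocon, TRAM1, SEC61A1, SEC61B, SEC61G, SEC62, SEC63, SSR1, SSR2, SSR3 and SSR4, out of 20033 protein-coding genes annotated on the main chromosomes. A peak belonged to a gene when it overlapped the gene's span on the hg38 genome build (GENCODE release 44), extended 200 bp upstream. By this rule the 10 genes held 35 of the 21142 peaks called in replicate 1, and 25 of the 20799 called in replicate 2. TRAM1 was selected on the fold enrichment of its 5′ end peak in these same libraries, and the other genes were added as its partners, so all values of that peak are given as a description without a test. The study mapped RNA bound by IGF2BP3, an RNA-binding protein that recognises N6-methyladenosine (m6A) and stabilises its target mRNAs, in OE-19, an established cell line that the labels assign to adenocarcinoma at the junction of esophagus and stomach. LACE-seq was used, in which RNA is crosslinked to protein by ultraviolet light, recovered with an antibody against the protein and sequenced from the positions where reverse transcription stopped. The labels gave 2 samples, replicates 1 and 2 of 1 group of OE-19 cells with no treatment or genotype named, and did not say whether they came from separate cultures. No input or control library was analysed here, so each fold enrichment was relative to the local background of the same library.

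The translocon is the channel through which secreted and membrane proteins enter the ER while they are being made. SEC61A1 encodes the pore-forming subunit of the channel, SEC61B and SEC61G its small subunits, and SEC62 and SEC63 encode partners that help proteins enter after or during translation. SSR1 to SSR4 encode the translocon-associated protein (TRAP) complex, which aids the entry of proteins with weak signal sequences. TRAM1 encodes a membrane protein next to the channel that nascent chains touch as they pass.

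Peaks were found in most of the genes in both replicates. Of the 10 genes, 8 held a peak in replicate 1, compared with 41.3% of all protein-coding genes, and 9 held one in replicate 2, compared with 42.6%. The same 8 genes held a peak in both replicates, for which the share of all protein-coding genes was 35.1%, and in all 8 at least 1 peak overlapped between the replicates, compared with 30.9%. SEC61B had peaks in replicate 2 only and SEC61G had none in either. Peak lists hold no RNA level, so these shares could not be set against the abundance of each mRNA, and a gene without a peak is not shown to be unbound. The median fold enrichment of the peaks was 7.63 (range 3.14 to 24.2) in replicate 1 and 7.47 (3.50 to 25.8) in replicate 2, beside 6.89 and 7.13 over all peaks. Peaks overlapping one of the other replicate made up 21 of 35 (60.0%) in replicate 1 and 20 of 25 (80.0%) in replicate 2. The same shares over all peaks were 60.1% and 61.2%.

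**Figure D1:**
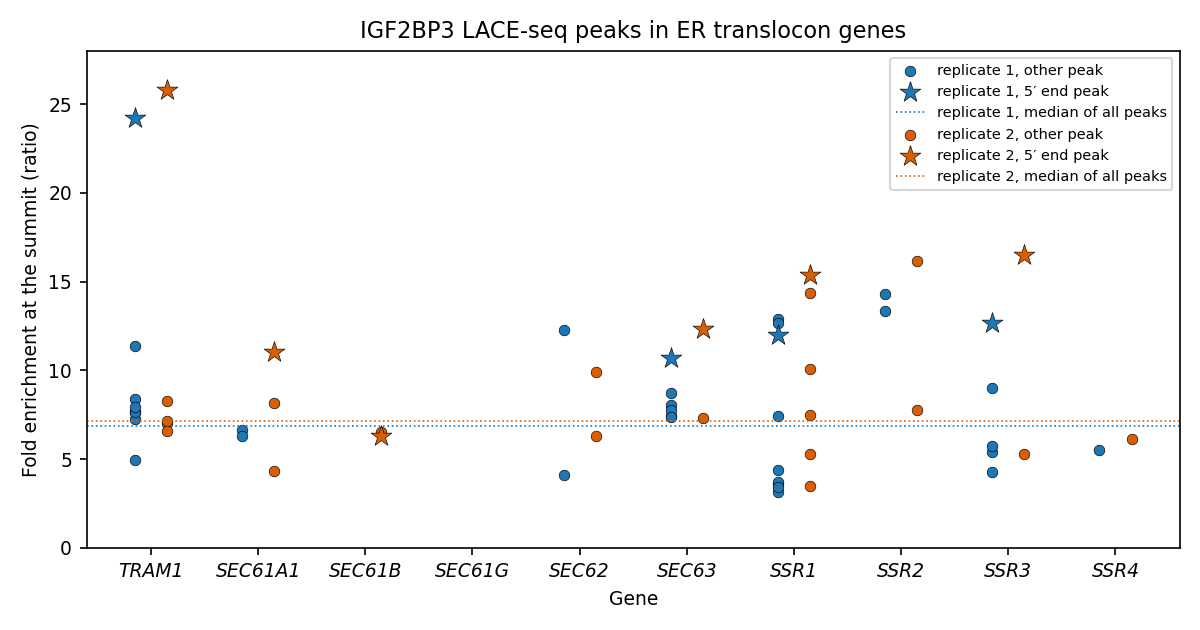
Fold enrichment (ratio, vertical axis) of every peak in each translocon gene (horizontal axis) in replicate 1 (blue) and replicate 2 (orange). Stars are peaks at the 5′ end of the representative transcript, circles are other peaks, and dotted lines are the medians of all peaks (6.89 and 7.13). The TRAM1 5′ end peak stands at 24.2 and 25.8, above every other peak shown.

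The peaks of both replicates reached the start codon in 5 of the 8 genes with a peak in both, TRAM1, SEC63, SSR1, SSR2 and SSR3. This share was 18.8% over the 7034 protein-coding genes with a peak in both replicates. The coding sequences covered by both replicates at the start codon are shown for 3 TRAP genes, since these are the stretches on which the peaks of the replicates over the start codon coincided. They are read 5′ to 3′ on the minus strand of hg38, the gene strand, from the start codon, which alone is in capitals. The SSR2 and SSR3 stretches also hold GGAC, the core of the m6A consensus, once each, left in lower case, and SSR1 holds none. The summits of these peaks lay outside the stretches shown. In the 101 nt centred on the summit, GGAC was absent at SSR1 and SSR3 in both replicates. At SSR2 it was present in replicate 2 only. These matches are thus not at the summits, and how often such stretches hold GGAC was not tested.
SSR1, chr6:7313081-7313120: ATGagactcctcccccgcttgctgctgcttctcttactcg
SSR2, chr1:156020044-156020167: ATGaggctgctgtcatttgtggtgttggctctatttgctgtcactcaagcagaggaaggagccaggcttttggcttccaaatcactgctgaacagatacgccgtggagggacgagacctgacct
SSR3, chr3:156554985-156555089: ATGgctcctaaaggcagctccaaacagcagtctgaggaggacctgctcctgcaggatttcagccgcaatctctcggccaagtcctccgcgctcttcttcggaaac

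The second set shows the shared coding exon sites away from the start codon with the highest mean fold enrichment in 4 genes other than TRAM1, whose sequence is not shown. Capitals mark GGAC, which was searched on the gene strand. SEC62 is read on the plus strand and the others on the minus strand of hg38. The SEC62, SEC63 and SSR2 stretches come from the last coding exon, and SSR1 from exon 4.
SEC62, chr3:169992723-169992823: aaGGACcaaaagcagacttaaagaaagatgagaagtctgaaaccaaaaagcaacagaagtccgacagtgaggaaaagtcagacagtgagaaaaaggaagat
SEC63, chr6:107871707-107871847: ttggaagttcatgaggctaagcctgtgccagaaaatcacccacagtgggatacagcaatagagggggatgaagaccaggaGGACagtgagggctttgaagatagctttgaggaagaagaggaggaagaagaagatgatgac
SSR1, chr6:7301472-7301572: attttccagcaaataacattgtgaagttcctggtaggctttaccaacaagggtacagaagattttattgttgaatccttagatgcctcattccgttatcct
SSR2, chr1:156009543-156009650: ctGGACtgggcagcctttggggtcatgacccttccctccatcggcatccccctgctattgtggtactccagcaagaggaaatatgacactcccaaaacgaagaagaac
The SEC62, SEC63 and SSR2 stretches held GGAC once each, in SSR2 as part of TGGAC, and the SSR1 stretch held none. The SEC62 stretch is 101 of the 389 coding nt under both peaks, with GGAC near its edge. Within the 101 nt centred on the SEC62 summit, GGAC occurred in replicate 2 but not in replicate 1. Over the 101 nt centred on each summit, GGAC occurred in 4 of 35 windows of the translocon genes (11.4%) in replicate 1 and 5 of 25 (20%) in replicate 2. The share was 28.9% of the 17849 windows and 31.8% of the 17488 windows of all peaks that could be placed on 1 gene strand. The windows of the translocon genes were all kept and read on the strand of that gene, also where a gene on the opposite strand overlapped the peak. The compared sets were thus not chosen alike. The longer motif TGGAC, whose matches are also counted under GGAC, was in 2 windows of each replicate (5.71% and 8.0%), compared with 10.0% and 10.2% of all windows. GC content was lower in the windows of the translocon genes as well, with medians of 40.6% and 50.5% beside 49.5% and 56.4% over all windows, and its part in the motif counts was not tested.

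TRAM1 had the peak of highest fold enrichment in the set. The gene lies at chr8:70573218-70608416 on the minus strand, and its mRNA of 3056 nt in 11 exons has 217 nt of 5′ UTR, 1122 coding nt and 1714 nt of 3′ UTR. In replicate 1 the 5′ end peak spanned chr8:70608096-70608551 with a fold enrichment of 24.2, a pileup (the number of reads stacked at the summit) of 82 and a local background of 2.43 reads. In replicate 2 it spanned chr8:70608106-70608599 with a fold enrichment of 25.8, a pileup of 109 and a background of 3.26. The summits lay 77 bp and 53 bp downstream of the transcript start, within the 5′ UTR in exon 1. Both peaks covered all 217 nt of the 5′ UTR and went on over the start codon into 104 and 94 coding nt, and they reached 135 bp and 183 bp upstream of the annotated start. The replicate 2 peak also touched LACTB2-AS1, a long non-coding RNA on the opposite strand, and since the peaks carry no strand its reads could not be assigned to a strand.

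The rank of the TRAM1 5′ end peak depended on the measure. By fold enrichment it was the 9th of all peaks in replicate 1 and the 6th in replicate 2, and the 2nd among 5′ end peaks in both. By pileup it was the 803rd and 344th of all peaks, and the 36th and 35th among 5′ end peaks. By −log10 q it was the 75th and 22nd of all peaks, with values of 88.1 and 117, and the 12th and 7th of the 5′ end peaks. A 5′ end peak here is one within 200 bp of the start of the representative transcript, which held for 1865 peaks in replicate 1 and 3524 in replicate 2. Those peaks had a median fold enrichment of 7.81 and 8.50 with a 95th percentile of 14.4 and 16.1, and a median pileup of 17 and 18 with a 95th percentile of 55 and 65. The TRAM1 peak was thus above the 95th percentile of 5′ end peaks in both measures and both replicates.

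Genes whose 5′ end peaks were most like that of TRAM1 were found by the lower of their percentiles of fold enrichment in both lists, over the 1728 protein-coding genes with a 5′ end peak in both. Only PARP2, a DNA repair enzyme, ranked above TRAM1, with 25.3 and 26.9. Below it came PERP, a desmosome-associated membrane protein, with 23.2 and 25.6, NUFIP2, an RNA-binding protein, with 21.6 and 21.2, and GSTA4, a glutathione transferase, with 19.9 and 21.5. Their pileups, from 93 to 218 reads, were larger than those of TRAM1 in each replicate except for NUFIP2 in replicate 2 (97). The backgrounds were larger than those of TRAM1 at all 4 genes, from 3.05 to 5.10 reads in replicate 1 and from 3.62 to 7.14 in replicate 2. Other genes under the peaks of these 4 genes are not given here. As the peaks carry no strand, their reads could not be assigned to the named gene alone.

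The rest of TRAM1 held 7 peaks in replicate 1 and 4 in replicate 2, all 4 overlapping one of replicate 1. At the stop codon the fold enrichment was 7.63 and 7.05 with pileups of 33 and 16. At the site over exon 10 it was 11.4 and 7.14 with pileups of 54 and 16, and both summits lay in the intron before this exon. The site over exon 7 gave 7.63 and 8.28 with pileups of 35 and 18, and that over exon 3 gave 7.92 and 6.60 with pileups of 22 and 12. At each of these sites the pileup was lower in replicate 2, whereas at the 5′ end it was higher. Replicate 1 alone had peaks in the 3′ UTR, with 8.36 and 4.94, and over exon 9, with 7.28. No TRAM1 peak other than that at the 5′ end exceeded a fold enrichment of 11.4.

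Among the SEC61 genes peaks were fewer, and only 1 shared site was found. SEC61A1 (chr3:128051641-128071705, plus strand) had 2 peaks in replicate 1 and 3 in replicate 2, and the replicates shared only a wide one of 1197 bp and 1279 bp in the 3′ UTR. This site had 6.30 and 8.17, with pileups of 62 and 92 on backgrounds of 8.995 and 10.4 reads. A part of this end of SEC61A1 is also annotated for RUVBL1 on the opposite strand, so the strand of these reads is not known. Peaks in 1 replicate only lay over exon 6 (6.63 in replicate 1), at the 5′ end (11.02 in replicate 2, pileup 22) and at the stop codon (4.31 in replicate 2, pileup 49). SEC61A1 thus had a 5′ end peak in replicate 2 but none was listed in replicate 1.

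SEC61B (chr9:99222064-99230615, plus strand) was covered in replicate 2 alone. Its upstream peak, with a fold enrichment of 6.28 and a pileup of 30, had its summit 382 bp before the representative transcript start and covered none of its exons. This peak lay over ALG2, a glycosyltransferase gene on the opposite strand, and was counted for SEC61B only through the upstream part of the gene span. Its edge came within 200 bp of the representative start, so it is also counted and drawn here as a 5′ end peak of replicate 2. The other SEC61B peak, over exon 3, had a fold enrichment of 6.51 from 8 reads. For SEC61G (chr7:54752250-54759974, minus strand) the nearest peaks lay 307664 bp and 258737 bp away, both at EGFR. Just outside the span of SEC61B the nearest peak in each replicate was 3337 bp upstream, at ALG2, with 6.38 and 5.63. The mRNAs of SEC61B and SEC61G were also the shortest of the set, with 564 nt and 425 nt. The next shortest, SSR4 with 608 nt, had overlapping peaks in both replicates, and a link between length and peaks was not tested.

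SEC62 (chr3:169966635-169998373, plus strand) had 2 sites, both in its last exon and both shared. The site in the coding part of exon 8 had a fold enrichment of 12.3 with a pileup of 85 in replicate 1, and of 9.93 with a pileup of 32 in replicate 2. The pileup of 85 was the highest of any translocon gene peak in replicate 1, above the 82 of the TRAM1 5′ end. The site in the 3′ UTR had 4.12 and 6.32, with pileups of 28 and 20. No 5′ end peak was listed for SEC62 in either replicate.

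SEC63 (chr6:107867756-107958208, minus strand) had its highest fold enrichment at the 5′ end in both replicates. The fold enrichment there was 10.7 and 12.3 with pileups of 21 and 28, and the summits lay 48 bp and 55 bp downstream of the start, close to the positions in TRAM1. ENSG00000272476, a long non-coding RNA on the opposite strand, overlapped this peak in both replicates. In the last exon the fold enrichment was 8.03 and 7.34 with pileups of 47 and 21, so in replicate 1 this peak was higher than the 5′ end by pileup. The replicate 1 peak there covered the stop codon, whereas that of replicate 2 covered 141 coding bases and ended at the last of them. Replicate 1 had 4 further peaks over internal coding exons, with fold enrichments from 7.37 to 8.74 and pileups from 12 to 19, and replicate 2 had none of these.

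**Figure D2:**
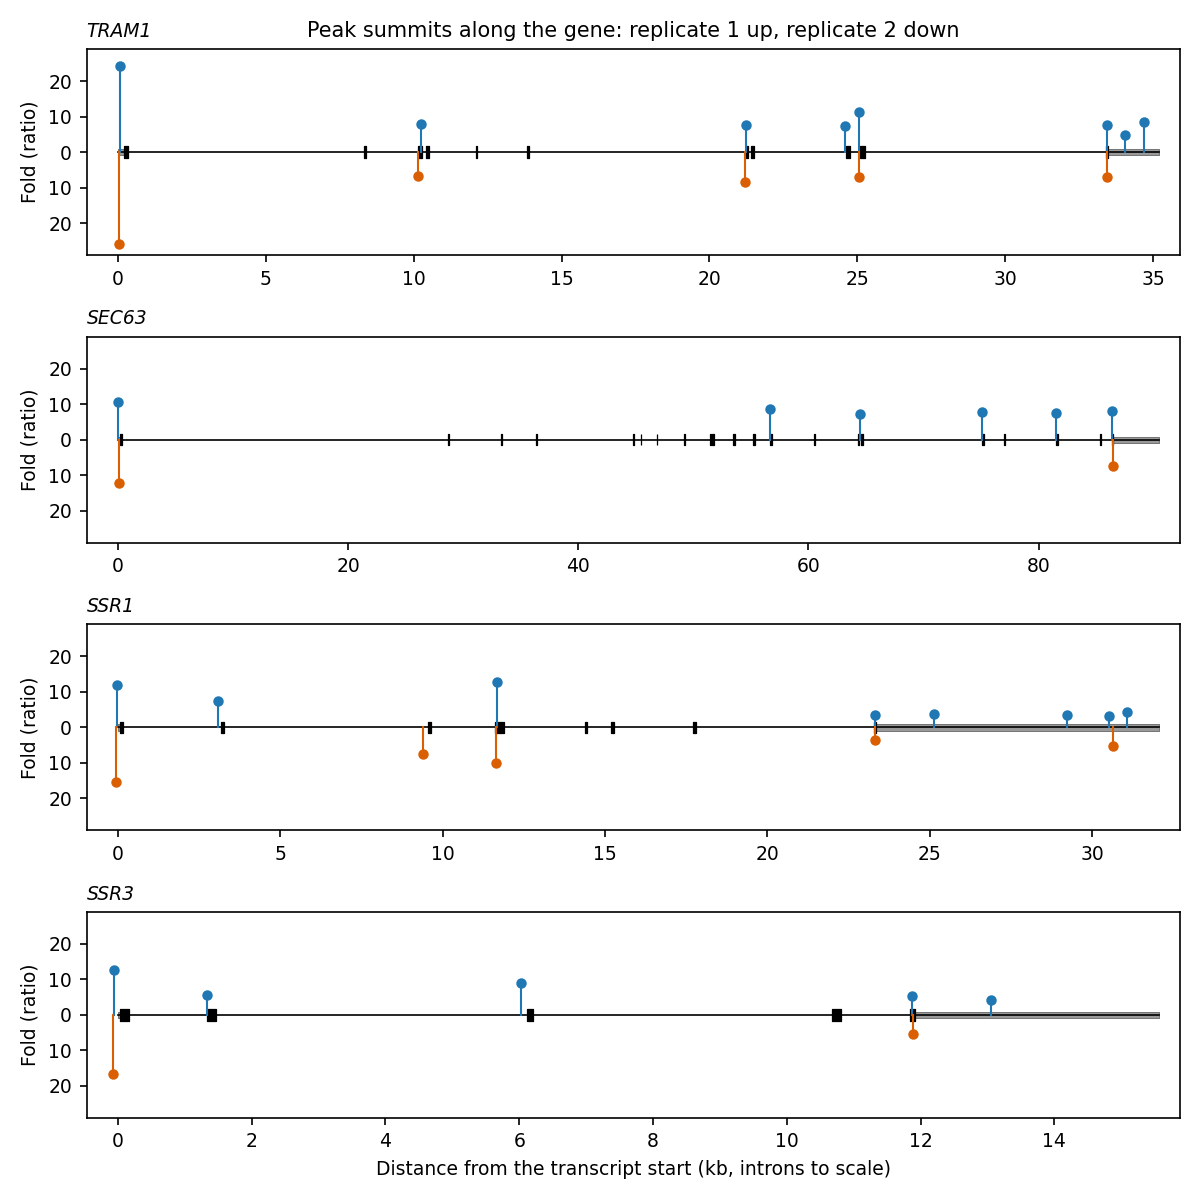
Summits of the peaks along TRAM1, SEC63, SSR1 and SSR3, the 4 genes with a 5′ end peak in both replicates, with the distance from the representative transcript start in kb on the horizontal axis and the fold enrichment (ratio) as the height of each line, upward for replicate 1 (blue) and downward for replicate 2 (orange). Black boxes are coding exons and grey boxes untranslated parts, and the SSR1 peak far upstream of the start is not drawn. Only in TRAM1 does the 5′ end line exceed 20.

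Of the TRAP genes, SSR1 (chr6:7268306-7347446, minus strand) had the most peaks, 9 in replicate 1 and 6 in replicate 2. At its 5′ end the fold enrichment was 12.01 and 15.4 with pileups of 30 and 41, and the summits lay 19 bp and 67 bp upstream of the start. The site over exon 4 had 12.9 and 10.0 with pileups of 41 and 25. Along the 3′ UTR, which is 8721 nt long, the pileups were higher but so was the background. The shared 3′ UTR site, split into 2 peaks in replicate 1, had pileups of 73 and 68 on backgrounds of 15.9 and 12.1 reads, which gave a fold enrichment of 4.37 and 5.29. The stop codon site had 3.44 and 3.50, with pileups of 48 and 33. In both replicates this 3′ UTR site had the higher pileup, and the 5′ end and exon 4 sites the higher fold enrichment.

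Peaks of SSR1 in 1 replicate only were 2 in the 3′ UTR and 1 over exon 2 in replicate 1, and 1 over exon 3 in replicate 2. The 3′ UTR peaks had pileups of 80 and 69 and a fold enrichment of 3.57 and 3.72, and the exon peaks had 7.41 and 7.47 with pileups of 19 and 17. A further site, with 12.7 and 14.4 and pileups of 44 and 51, had its summits 26285 bp and 26016 bp upstream of the representative start and covered no exon of that transcript. It lay in CAGE1 and in ENSG00000220472, a processed pseudogene, and was counted for SSR1 because longer SSR1 transcripts are annotated there. ENSG00000238221, on the opposite strand, overlapped the 3′ UTR and stop codon sites.

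SSR2 (chr1:156009048-156020951, minus strand) had 2 sites, both shared. At the stop codon the fold enrichment was 14.3 and 16.2 with pileups of 64 and 68, the highest fold enrichment of any translocon gene peak in replicate 1 outside the TRAM1 5′ end. The site over exon 2, which begins with the start codon, had 13.3 and 7.77 with pileups of 42 and 15. The summits of this site lay 722 bp and 677 bp downstream of the transcript start, in the intron that precedes exon 2 of the representative transcript, and the site was not counted as a 5′ end peak. ENSG00000285677, a long non-coding RNA on the opposite strand, spanned both sites.

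SSR3 (chr3:156539553-156555149, minus strand) had 5 peaks in replicate 1 and 2 in replicate 2. At the 5′ end the fold enrichment was 12.7 and 16.5, with pileups of 31 and 33 and summits 62 bp and 70 bp upstream of the start. At the stop codon it was 5.39 and 5.31, with pileups of 60 and 31. Replicate 1 alone had peaks in the 3′ UTR (4.25) and over exons 3 (9.004) and 2 (5.73). SSR4 (chrX:153793516-153798499, plus strand) had 1 peak in each replicate, with 5.54 and 6.13 and pileups of 30 and 28. The SSR4 peaks overlapped, but that of replicate 1 reached 84 coding nt of exon 2, whereas that of replicate 2 lay wholly in the intron before it.

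The 5′ ends could then be compared across the set. An overlapping pair of 5′ end peaks was found in 4 of the 8 genes with a peak in both replicates, TRAM1, SEC63, SSR1 and SSR3, beside 24.4% of the 7034 such protein-coding genes. Their fold enrichments ran in the order TRAM1, SSR3, SSR1 and SEC63 in both replicates. SSR3 and SSR1 were apart by 0.675 and 1.16, less than the difference of each between the replicates (3.84 and 3.35). SSR1 and SEC63 were apart by 1.30 and 3.03, less than the difference of SSR1 between replicates (3.35), although in replicate 2 more than that of SEC63 (1.62). All 4 genes had the higher value in replicate 2. The TRAM1 value was 1.91 times the next highest 5′ end value of the set in replicate 1 and 1.56 times in replicate 2. By pileup the ratio was 2.65 and 2.66, and by −log10 q it was 3.33 and 3.10. TRAM1 was chosen for this fold enrichment, so its place at the head of the set follows from the choice and no test of it was made. By rank among the 1728 genes above, TRAM1 was the 2nd, SSR3 the 144th, SSR1 the 192nd and SEC63 the 297th.

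**Figure D3:**
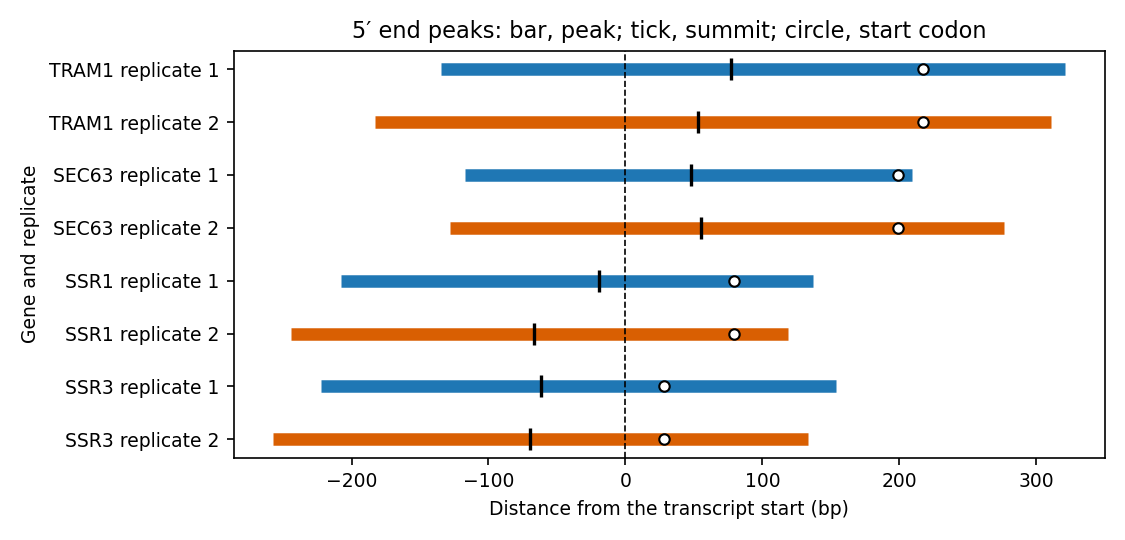
Extent of the 5′ end peaks (bars) of TRAM1, SEC63, SSR1 and SSR3 in replicate 1 (blue) and replicate 2 (orange) by distance from the representative transcript start in bp. The black tick is the summit and the white circle the start codon. The summits of TRAM1 and SEC63 lie 48 bp to 77 bp downstream of the start and those of SSR1 and SSR3 lie 19 bp to 70 bp upstream, while each bar runs over the start codon.

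In both replicates the summits lay downstream of the start in TRAM1 and SEC63 and upstream in SSR1 and SSR3. The SSR1 summits were 48 bp apart between replicates, and no peak of either list was narrower than 293 bp. Summit positions this near the start are thus approximate. TRAM1 and SEC63 also had the longer 5′ UTRs, with 217 nt and 199 nt, compared with 79 nt in SSR1 and 28 nt in SSR3. A link between 5′ UTR length and the side of the summit was not tested. Over all 5′ end peaks the summit lay upstream of the start in 41.4% in replicate 1 and 40.8% in replicate 2. The 5′ end windows were rich in GC, with a median of 72.8% and 74.3% (lowest 66.3% in each replicate), compared with 38.6% and 48.5% in the windows of the other translocon gene peaks. The part of GC content in the height of the 5′ end peaks was not tested.

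**Figure D4:**
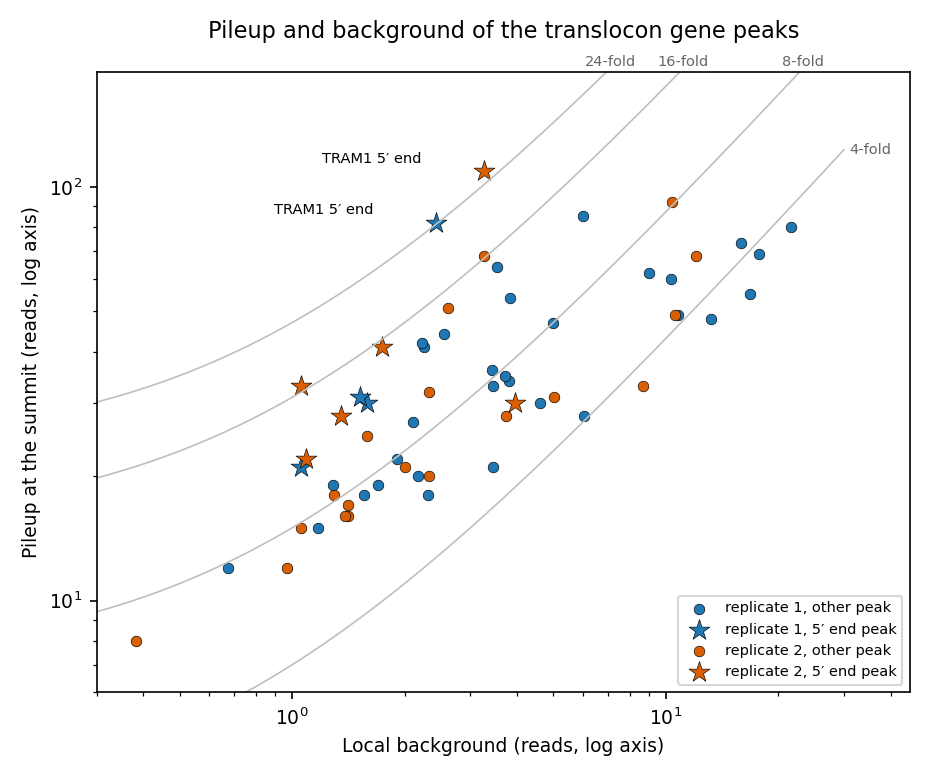
Pileup at the summit (reads, log axis) against the local background (reads, log axis) for every translocon gene peak in replicate 1 (blue) and replicate 2 (orange). Stars are 5′ end peaks and grey curves mark equal fold enrichment. The TRAM1 5′ end peaks, with 82 and 109 reads on a background of 2.43 and 3.26, lie near the 24-fold curve, whereas SSR1 3′ UTR peaks with up to 80 reads lie near the 4-fold curve.

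The pileup and the background that made up each fold enrichment differed between TRAM1 and the other 5′ ends. The background at the TRAM1 5′ end, 2.43 and 3.26 reads, was higher than at SSR3 (1.52 and 1.06), SSR1 (1.58 and 1.73) and SEC63 (1.05 and 1.35). The median background of all 5′ end peaks was 1.05 and 1.06 reads. A higher background lowers the fold enrichment, so the order of TRAM1 above the other 3 genes came from its pileup of 82 and 109 reads against 21 to 31 in replicate 1 and 28 to 41 in replicate 2.

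Between replicates, the sites at the 5′ ends of representative transcripts and most of the others went different ways. At the 4 shared 5′ end sites the pileup of replicate 2 over that of replicate 1 was 1.33 in the median, from 1.06 to 1.37, and above 1 at all 4. At the 16 other shared sites it was 0.578 in the median, from 0.296 to 1.48. It was above 1 at 3, the SEC61A1 3′ UTR site (1.48), the far upstream SSR1 site (1.16) and the SSR2 stop codon site (1.06). The split depends on the definition of a 5′ end by the representative start. The SSR2 site over exon 2, which covers the start codon in both replicates, was counted among the 16 others, with a ratio of 0.357. The same direction was seen outside the translocon genes. Among shared peaks of all protein-coding genes the pileup was higher in replicate 2 for 73.7% of 1718 peaks at 5′ ends (median ratio 1.40) and for 43.3% of 9774 others (median ratio 0.948). The total number of reads in each library was not given in the files, so these ratios carry the depth of the libraries and only their difference between kinds of site can be read.

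**Figure D5:**
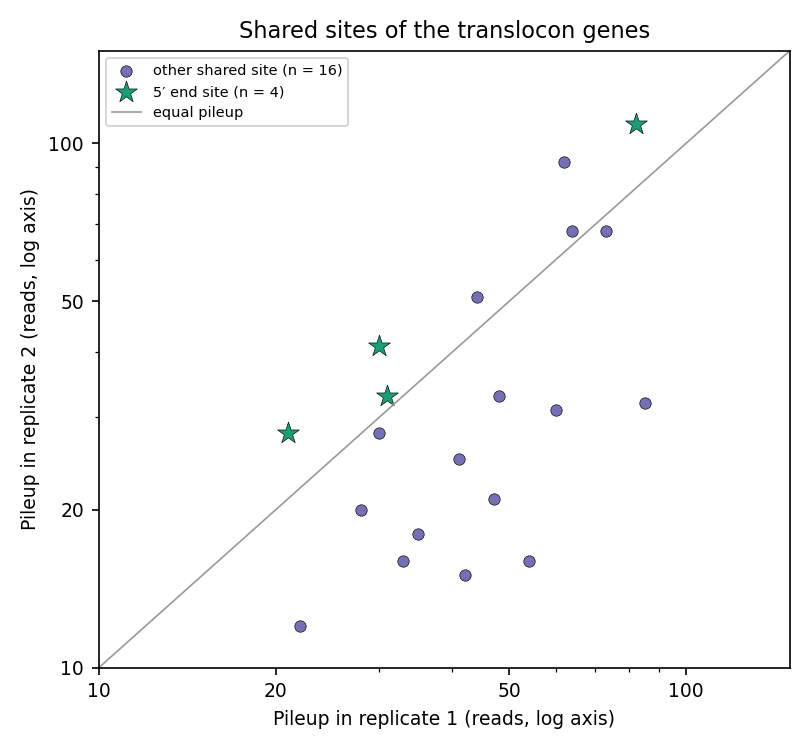
Pileup (reads, log axes) in replicate 2 against replicate 1 at the 20 sites of the translocon genes that both replicates share. Stars are the 4 sites at 5′ ends, circles the other 16, and the line marks equal pileup. All 4 stars lie above the line and 13 of the 16 circles lie below it.

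At the other end of the coding sequence, 4 of the 8 genes had an overlapping pair of peaks over the stop codon, TRAM1, SSR1, SSR2 and SSR3, compared with 25.6% of the 7034 protein-coding genes. TRAM1, SSR1 and SSR3 had both a 5′ end pair and a stop codon pair, which held for 7.34% of those genes. The fold enrichment at the stop codon was below that at the 5′ end in all 3 and in both replicates, from 5.39 against 12.7 in SSR3 to 7.05 against 25.8 in TRAM1. By pileup the order was reversed in replicate 1 for SSR1 (48 against 30 reads) and SSR3 (60 against 31). The backgrounds at those stop codons were 13.2 and 10.3 reads, against 1.58 and 1.52 at the 5′ ends. For TRAM1, and for all 3 genes in replicate 2, the pileup was also lower at the stop codon. SSR2, with no 5′ end peak, had the highest stop codon values of the set.

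The positions of the translocon gene peaks were set beside those of all pairs of a peak and a protein-coding gene, 20999 in replicate 1 and 21150 in replicate 2. In replicate 1, 25 of 35 peaks (71.4%) covered coding bases, and in replicate 2 this held for 18 of 25 (72.0%), close to the 65.7% and 66.0% of all pairs. A coding base lay at the summit itself in 10 peaks (28.6%) and 9 peaks (36.0%), beside 30.3% and 30.5%. Peaks holding both exon and intron bases numbered 21 in replicate 1 and 13 in replicate 2 (60.0% and 52.0%), beside 52.3% and 49.6%. The 3′ UTR alone held 9 and 3 peaks (25.7% and 12%), beside 17.0% and 13.2%. The summit lay in an exon of the representative transcript for 21 and 13 peaks, so a site named here by an exon under the peak may have its summit in the intron beside it. The shortest peak of either list was 293 bp wide, longer than every internal exon of TRAM1 (the longest has 161 nt), so a peak over such an exon had to reach into an intron.

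Other genes of protein entry into the ER also held peaks in most cases. Of 54 genes of the signal recognition particle and its receptor, signal peptidase, oligosaccharyltransferase, the ER membrane protein complex, the GET pathway, the multipass translocon, ER chaperones and paralogs of the set, 42 had a peak in each replicate and 38 (70.4%) in both, while 8 had none. Over all protein-coding genes the shares were 41.3%, 42.6% and 35.1%, as given above. An overlapping 5′ end pair was found in 20 of the 38 (52.6%), beside 24.4% of all genes with a peak in both replicates. RPN1, a subunit of the oligosaccharyltransferase that glycosylates entering proteins, stood first by its highest peak, with 23.1 and 20.5, and GET4, of the pathway for tail-anchored proteins, stood last with 3.26 and 2.89. The 5′ end peaks of RPN1, with 19.2 and 20.5, were the highest of the 20 pairs by fold enrichment, and the TRAM1 values were above them in both replicates. By pileup HSPA5, the ER chaperone BiP, stood highest with 84 and 135 reads, above RPN1 (58 and 69) and also TRAM1 (82 and 109), at a fold enrichment of 7.77 and 7.31. TRAM2, the paralog of TRAM1, had a 5′ end pair with 8.26 and 13.6 and pileups of 15 and 29, and TRAM1L1, the other paralog, had no peak.

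Reads from near-identical copies were looked for in the annotation and the genome. Of 6 annotated pseudogenes of the 10 genes, none had a peak in replicate 1 and 1, SSR4P1, had a peak in replicate 2. The 31 nt centred on the summit occurred once in the genome for 33 of 35 peaks and 23 of 25 peaks. The exceptions were the last exon site of SEC63 in both replicates, the far upstream SSR1 site in replicate 1 and the SSR3 stop codon site in replicate 2. The TRAM1 5′ end summits occurred once.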

How the data were processed

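IGF2BP3 LACE-seq of OE-19 cells gave 1 deposited peak list per replicate, called per replicate on hg38 without strand. The submitters' processing notes list fastp, HISAT2 and MACS2, whereas the study's methods name Bowtie and Piranha for LACE-seq. Their versions are not given in the sources used here, and which tools made the lists is not known. The authors deposited a fold enrichment (a ratio) and −log10 p and −log10 q values at each summit, and these 3 were used. Pileup and local background were recovered from fold and p as a Poisson tail with a pseudocount of 1 (tolerance 0.001), which succeeded for every peak and, in data simulated with known pileups, for 1916 of 1923. Library totals are unknown, so ranks and percentiles were taken within a list. Pileups and fold enrichments set side by side between the replicates were not corrected for library depth.

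Genes came from GENCODE release 44 and sequences from hg38. The representative transcript was MANE Select, else Ensembl canonical, else the longest. Shared peaks overlap by at least 1 bp. Named genes are the 10 members, the neighbours of TRAM1 in rank (up to 3 to each side), and the first and last of the 54 genes of ER entry by mean fold enrichment. TRAM2 and TRAM1L1, as paralogs of TRAM1, and HSPA5 and SSR4P1 were named after their values were seen. The members and lists were chosen with earlier results of these data known. With 1 group of 2 samples no test was made. Python 3.11.15, pandas 2.3.3, numpy 2.4.6 and scipy 1.17.1 were used.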

Additional observations from a re-analysis of the deposited data

How the results depend on the processing

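Of 35 alternative values for 6 results, 28 were counted as the same. Their moves were less than the spread between the replicates or, for counts of genes, no more than from 4 to 6. Part of this tally was fixed in advance. Leaving out 1 replicate always moves a mean of 2 by less than their standard deviation, the spread used here. A stricter −log10 q limit of 5 removed no translocon gene peak, as the lowest value was 6.72. The share of peaks overlapping the other replicate (70.0% as a mean of the replicates) was 51.4% when summits had to lie within 50 bp. The TRAM1 5′ end peak was at the 99.97th percentile by fold enrichment, the 99.77th by −log10 q and the 97.2nd by pileup, and its ratio to the next highest 5′ end peak was 1.73, 3.22 and 2.65 by these measures. The share of peaks with coding bases (71.7%) was 32.3% when the summit itself had to be coding, and 74.3% when peaks had to overlap the representative transcript, an alternative chosen after seeing the data that leaves out the far upstream SSR1 site. The genes with a 5′ end pair numbered 6 instead of 4 when the start of any transcript was used. Within single replicates, the genes with a peak numbered 8 and 9, and those with a 5′ end peak 4 and 6. The 6 include SEC61B, whose peak lay over ALG2 and covered no exon of the representative transcript. The overlap between replicates could not be computed without either replicate. Both libraries share 1 group and lack a control, the total depth is unknown, and sites listed in 1 replicate only may lie below the calling threshold of the other. No paired analysis was possible because there is only 1 group.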
